A study of Rattus norvegicus with 89 samples.

Results

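Rnf125 and Ptger3 are a pair of rat genes whose kidney signals were both lower 1 day after treatment with unlike compounds than after saline. They were selected on those day-1 differences in these same arrays, so the day-1 values are given below as a description, with no test. They are 2 of the 14217 genes with 1 named symbol on the array, and both were among the 11415 genes that passed the filter on low signal. Rnf125 was read by 1 probe set (1384098_at). Ptger3 was read by 2, of which the brighter (1376977_at) stands for the gene and the dimmer (1369187_a_at) is given beside it.

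Rnf125 encodes a RING-type E3 ubiquitin ligase, an enzyme that attaches ubiquitin to other proteins. It is known for marking the viral RNA sensor RIG-I and its adaptor MAVS for degradation, which dampens the interferon response. Ptger3 encodes EP3, 1 of the receptors for prostaglandin E2, a lipid messenger made in the kidney from arachidonic acid by the cyclooxygenases. EP3 couples mainly to inhibitory G proteins, and in the kidney it is found in the thick ascending limb and the collecting duct, where it opposes the action of vasopressin on salt and water transport. The circadian clock comes into the results as well: BMAL1 with CLOCK or NPAS2 drives Dbp, Per and Nr1d genes, whose messenger RNA peaks at the opposite time of day from that of Bmal1.

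The arrays measured kidney RNA of 89 Sprague-Dawley Crl:CD(SD) rats, 44 males and 45 females, of about 7 to 8 weeks when dosing began, with 1 array per rat and both kidneys of a rat pooled from their apical parts. The 15 groups were naive rats, which were not treated, and rats given saline, gentamicin, tobramycin, cisplatin, cadmium, doxorubicin or valproic acid every day for 1 day or for 5 days. Gentamicin and tobramycin are aminoglycoside antibiotics, cisplatin and doxorubicin are cancer drugs, cadmium is a metal that collects in the kidney, and valproic acid is an antiepileptic. The series counts 5 of its agents as nephrotoxicants and 2 as controls. Groups held 6 rats, except 7 for saline at day 1 and 5 each for saline and doxorubicin at day 5. The labels state neither the doses nor the hour of sampling. The treatment text of 5 arrays was absent or differed from the title that put them in their group: rats 1F104 and 1M2 of saline at day 1, 1M4 of saline at day 5, 2F114 of gentamicin at day 5 and 5F137 of cadmium at day 1.

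The 2% trimmed mean of the deposited signal ran from 91.5 to 352 between arrays, and every array was rescaled to the same trimmed mean of 180.9 before any comparison. Rank correlations between arrays ran from 0.898 to 0.988. Signals below are these scaled MAS5 signals, and differences are on the log2(signal + 16) scale, which understates changes of dim genes. The kidney label held: the summed signal of 8 proximal tubule genes was at least 23005 in every rat. The RNA came from whole tissue pieces, so fewer cells of a type and less RNA per cell cannot be told apart.

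Rnf125 lies on chromosome 18 from base 12528995 to 12550646 and Ptger3 on chromosome 2 from base 249264985 to 249409966, in the RefSeq annotation of the GRCr8 assembly. Both genes are protein-coding on the forward strand. RefSeq lists 1 transcript of Rnf125 and 6 of Ptger3. The sequence before each gene's first annotated base is shown because the pair was lower together at day 1 and clock genes varied with 1 of them. Capitals would mark a clock motif, and there are none.

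Rnf125 upstream, chr18:12528745-12528994: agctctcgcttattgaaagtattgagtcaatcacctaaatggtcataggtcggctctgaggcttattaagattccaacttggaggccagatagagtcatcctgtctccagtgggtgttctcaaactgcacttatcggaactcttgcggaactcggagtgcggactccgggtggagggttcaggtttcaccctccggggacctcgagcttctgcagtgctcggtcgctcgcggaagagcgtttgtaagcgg
Ptger3 upstream, chr2:249264832-249264984: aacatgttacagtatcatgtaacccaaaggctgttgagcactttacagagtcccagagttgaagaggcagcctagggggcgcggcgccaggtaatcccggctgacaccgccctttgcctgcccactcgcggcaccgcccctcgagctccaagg

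The Rnf125 stretch is 250 bases long with 53.2% G and C and 15 CG pairs, and the Ptger3 stretch is 153 bases long with 60.1% G and C and 9 CG pairs. The 250 bases before each start in the RefSeq promoter table (for Ptger3, before the start of a transcript that begins within the annotated gene, so that 97 of the 250 bases lie inside it and are not shown) were searched on both strands for the E-box CACGTG, the D-boxes TTATGTAA and TTACGTAA and the core AGGTCA of ROR and REV-ERB elements. The D-boxes are close to each other in letters, but none of these motifs lies within another. Neither gene held any of them. Among the 27457 promoters of the same length, 5.79% held the E-box, 0.816% and 0.113% the D-boxes and 13.7% the AGGTCA core. Of the clock genes searched alike, Per2 held 1 TTATGTAA and Bmal1 held 1 AGGTCA core, while Dbp and Nr1d1 held none. The search says only that these letters are not in the windows of Rnf125 and Ptger3.

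Rnf125 was highest in the saline rats and lowest in rats given valproic acid, doxorubicin or cadmium for 5 days. Its signal at day 1 of saline was 164.7 ± 82.7 (SD, n = 7). The rats ran from 70.7 through a median of 116 to 268, and the 3 males, at 212 or above, lay apart from the 4 females, at 116 or below. The 5 saline rats of day 5 had signals of 76.4 and 122.2 in females and 156.3, 193 and 238 in males. Naive rats were at 114.6 ± 40.9 (SD, n = 6), from 68.5 to 160 with a median of 110. Both saline groups thus had higher means than the untreated rats, with overlapping values.

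At the other end of the order, the 6 rats given valproic acid for 5 days had Rnf125 signals of 43.3, 48.4 and 58.1 in females and 61.9, 68.1 and 72.1 in males. All 6 lay below the lowest saline rat of day 5. The 5 doxorubicin rats of day 5 were at 44.3, 48.8 and 67.4 in females and 71.7 and 105.6 in males. Of these, 4 lay below every saline rat. The cadmium rats of day 5 ran from 57.8 to 83.3 with a median of 69.6, and 5 of 6 lay below every saline rat. Males and females overlapped in that group, at 61.1 to 71.3 and 57.8 to 83.3. How many other genes lay below saline in these ways was not counted.

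The other groups lay between. At day 1, mean Rnf125 signals were 118.96 ± 32.01 with gentamicin, 120 ± 54.7 with cisplatin, 100.6 ± 52.4 with tobramycin, 88.5 ± 43.6 with cadmium, 81.7 ± 18.8 with doxorubicin and 81.5 ± 27.8 with valproic acid (SD, n = 6 each). At day 5, they were 120.5 ± 55.1 with gentamicin, 93.7 ± 28.5 with tobramycin and 82.999 ± 29.98 with cisplatin (SD, n = 6 each). Ordered by means that weight the sexes equally, no neighbour among the 15 groups differed by more than the larger of the neighbours' SDs (0 of 14 gaps). Sorting puts similar means side by side and the SDs span both sexes, so this does not show that groups were alike. The highest and lowest groups in that order, saline at day 1 and valproic acid at day 5, differed by 1.24 on the log2 scale, a 2.36-fold difference.

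Ptger3 also had its highest mean in saline at day 1, but its lowest group was valproic acid at day 1, not day 5. Its signals in the 7 saline rats of day 1 ran from 465 through 622 to 845, with a mean of 611 ± 130.8 (SD). The 6 valproic acid rats of day 1 ran from 259 through 343 to 381, with a mean of 333 ± 47.1 (SD), and all lay below every saline rat of that day. After 5 days of valproic acid the signals were 374, 392 and 420 in males and 510, 553 and 565 in females. The 5 saline rats of day 5 were at 336 and 456 in females and 484, 520 and 613 in males. The valproic acid and saline rats of day 5 overlapped, and the sexes lay in the opposite order in these groups.

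Ptger3 in naive rats ran from 302 through 370 to 559, with a mean of 405 ± 94.6 (SD, n = 6). Mean Ptger3 signals at day 1 were 545 ± 84.96 with gentamicin, 462 ± 103.7 with cisplatin, 420 ± 146.1 with tobramycin, 388 ± 65.9 with cadmium and 365 ± 76.4 with doxorubicin (SD, n = 6 each). At day 5 they were 537 ± 240 with cisplatin (n = 6), 448 ± 157.7 with doxorubicin (n = 5), 371 ± 80.0 with tobramycin, 364 ± 101.4 with gentamicin and 342 ± 63.7 with cadmium (n = 6 each, all SD). The wide spread with cisplatin came with 1 male at 979, the highest rat of the series, while the others ran from 360 to 647. No neighbours in the order of groups differed by more than their spread (0 of 14 gaps), and the ends differed by 0.81 on the log2 scale, or 1.76-fold.

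The second Ptger3 probe set had the same groups at both ends of its order, but saline at day 5 ranked 12 of 15 with it and 5 with the brighter one, and naive rats 4 and 9. It had its highest mean in saline at day 1, 265 ± 49.4 (SD, n = 7), and its lowest in valproic acid at day 1, 137.9 ± 37.05 (SD, n = 6). The group means of both probe sets correlated at r = 0.86 over 15 groups, and their deviations within group and sex at r = 0.51 over 89 rats. These values share the array and its scaling, and they describe how far the probe sets read the same thing. All 89 rats were above the filter signal of 33.2 with all 3 probe sets.

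**Figure D1:**
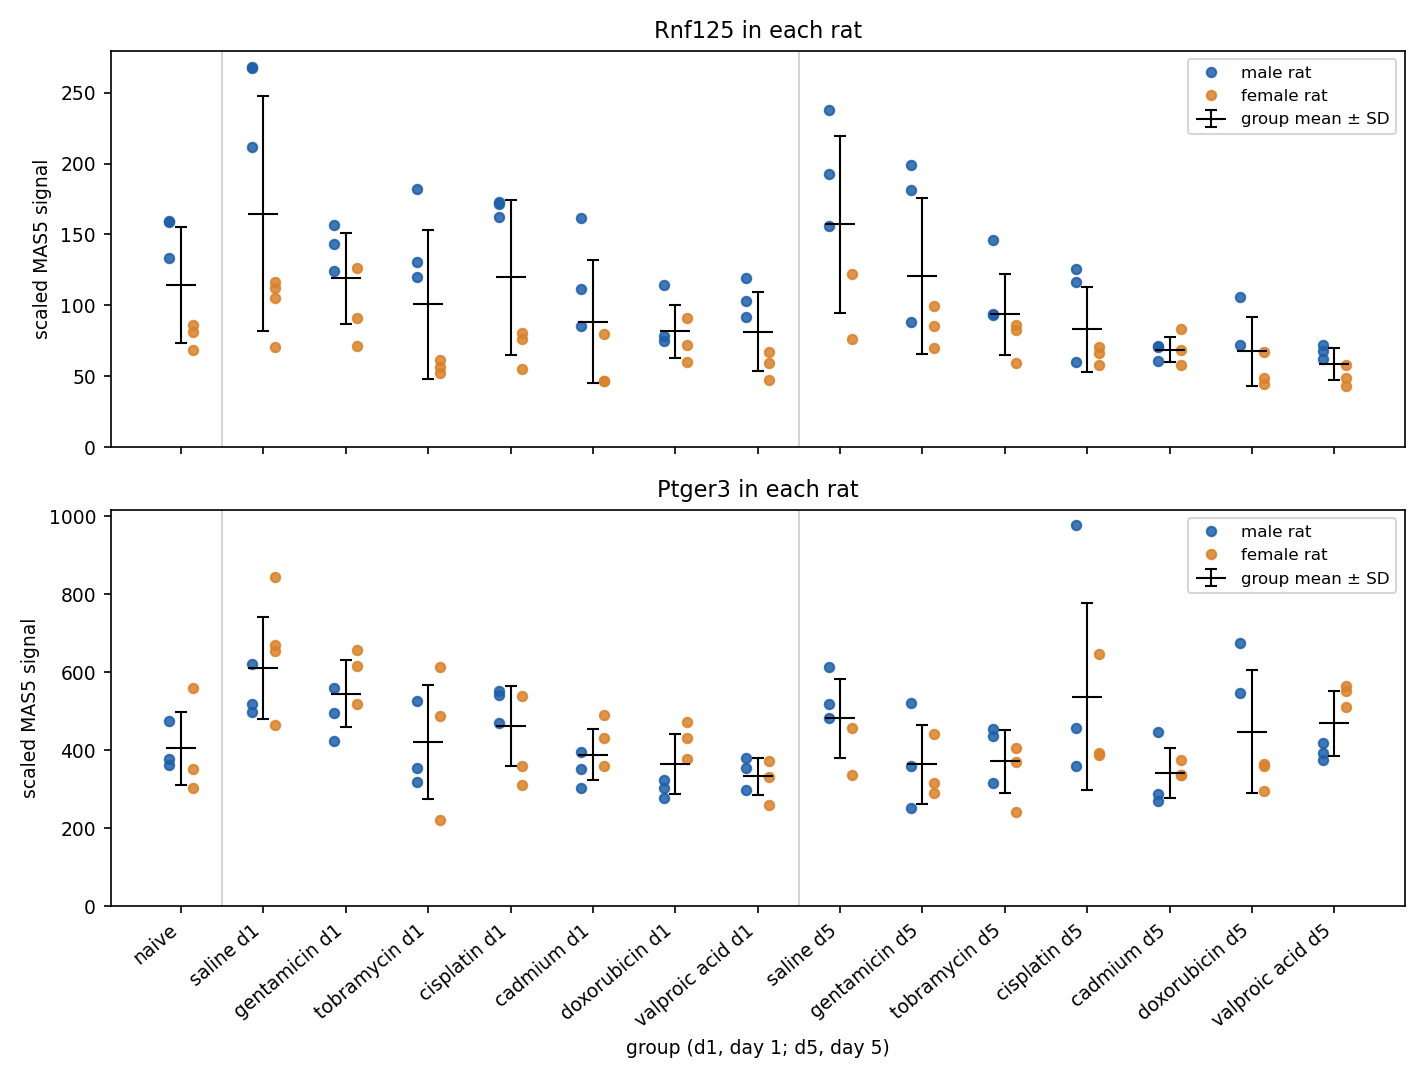
Scaled MAS5 signal of Rnf125 (top) and of the brighter Ptger3 probe set (bottom) in each rat, by group, with males and females as separate points and the group mean ± SD as black bars. Rnf125 ran from 43.3 to 268, with males above females in most groups and the lowest values at day 5, and Ptger3 ran from 222 to 979 with its highest group mean in saline at day 1.

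At day 1, the contrast by which the genes were chosen, Rnf125 was lower than saline with every compound. The log2 differences were -0.39 with gentamicin, -0.70 with tobramycin, -0.47 with cisplatin, -0.83 with cadmium, -0.83 with doxorubicin and -0.88 with valproic acid. Those of Ptger3 were -0.13, -0.56, -0.40, -0.60, -0.69 and -0.82 in the same order. The 6 comparisons share 1 set of 7 saline rats, so the differences are not independent of one another.

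The means of the saline rats of day 1 were themselves above those of the naive rats, by 0.47 for Rnf125 and by 0.57 for Ptger3. Set against naive rats instead, Ptger3 at day 1 was 0.43 higher with gentamicin, 0.18 higher with cisplatin and 0.01 higher with tobramycin. It was at -0.04 with cadmium, -0.14 with doxorubicin and -0.25 with valproic acid. With every compound but gentamicin, Ptger3 at day 1 lay nearer to naive than to saline rats. Rnf125 against naive rats at day 1 was at 0.07 with gentamicin, 0.01 with cisplatin, -0.22 with tobramycin, -0.36 with cadmium, -0.38 with doxorubicin and -0.41 with valproic acid. These values are descriptions too, since the treated and saline rats of day 1 took part in the choice.

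At day 5, whose rats were not used in the choice, the mean of Rnf125 lay below that of saline with all 6 compounds, and that of Ptger3 was close to saline with 3 of them. The log2 differences of Rnf125 were -0.27 with gentamicin (95% interval -0.69 to 0.15), -0.55 with tobramycin (-0.92 to -0.18) and -0.71 with cisplatin (-1.10 to -0.32). They were -0.92 with cadmium (-1.33 to -0.50), -0.87 with doxorubicin (-1.24 to -0.49) and -1.09 with valproic acid (-1.42 to -0.76). With valproic acid Rnf125 had the smallest p of all 11415 genes and was 2.12-fold lower. Within each sex, every rat given cisplatin, doxorubicin or valproic acid lay below every saline rat of day 5. With tobramycin and cadmium this held in males but not in females, and with gentamicin in neither sex. The saline group held only 5 rats, 3 of them male, so few values had to lie apart for this. The share of all genes placed in this way was not counted.

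None of the 12 values of the pair passed an adjusted p of 0.05 at day 5 when each compound and its saline group were fitted alone (limma, Benjamini-Hochberg over all genes). Without adjustment, 8 of the 12 had a p under 0.05, 5 of them for Rnf125 and 3 for Ptger3. The adjusted p of Rnf125 was 0.0847 with valproic acid, 0.125 with doxorubicin, 0.391 with cisplatin and 0.398 with cadmium. Few genes passed at all in these fits: 0% of the genes tested with gentamicin, tobramycin, cadmium and valproic acid, 0.00876% with cisplatin and 0.114% with doxorubicin.

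Fitting all 89 arrays together, which pools the spread over all groups, called Rnf125 lower with 3 compounds. These were valproic acid (-1.08, adjusted p = 0.0003 in limma), doxorubicin (-0.88, adjusted p = 0.0094) and cadmium (-0.89, adjusted p = 0.023). Cisplatin was at -0.71 with an adjusted p of 0.051. The shares of all genes called in these fits were 0.149% with valproic acid, 0.377% with doxorubicin, 0.0613% with cadmium, 0.412% with cisplatin, 0.0175% with gentamicin and 0% with tobramycin. The count of 3 fell to 1, valproic acid, without saline male 1M4, whose Rnf125 signal of 238 was the highest of its group and whose treatment text was absent. Over 40 fits that each left out 1 rat of day 5, Rnf125 passed in 40 with valproic acid, 37 with doxorubicin and 35 with cadmium. The 6 comparisons share the 5 saline rats of day 5.

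Ptger3 at day 5 was at -0.38 with gentamicin (95% interval -0.77 to -0.001), -0.33 with tobramycin (-0.65 to -0.01) and -0.45 with cadmium (-0.79 to -0.12). It was at 0.12 with cisplatin (-0.36 to 0.60), -0.01 with doxorubicin (-0.30 to 0.27) and -0.04 with valproic acid (-0.37 to 0.30). No adjusted p was below 0.762, and in the fit on all arrays none of the 6 passed either. The second probe set gave 0.02 with gentamicin, -0.01 with tobramycin, 0.26 with cisplatin, -0.09 with cadmium, 0.15 with doxorubicin and 0.04 with valproic acid, so it did not repeat the lower values of the first with gentamicin, tobramycin and cadmium.

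**Figure D2:**
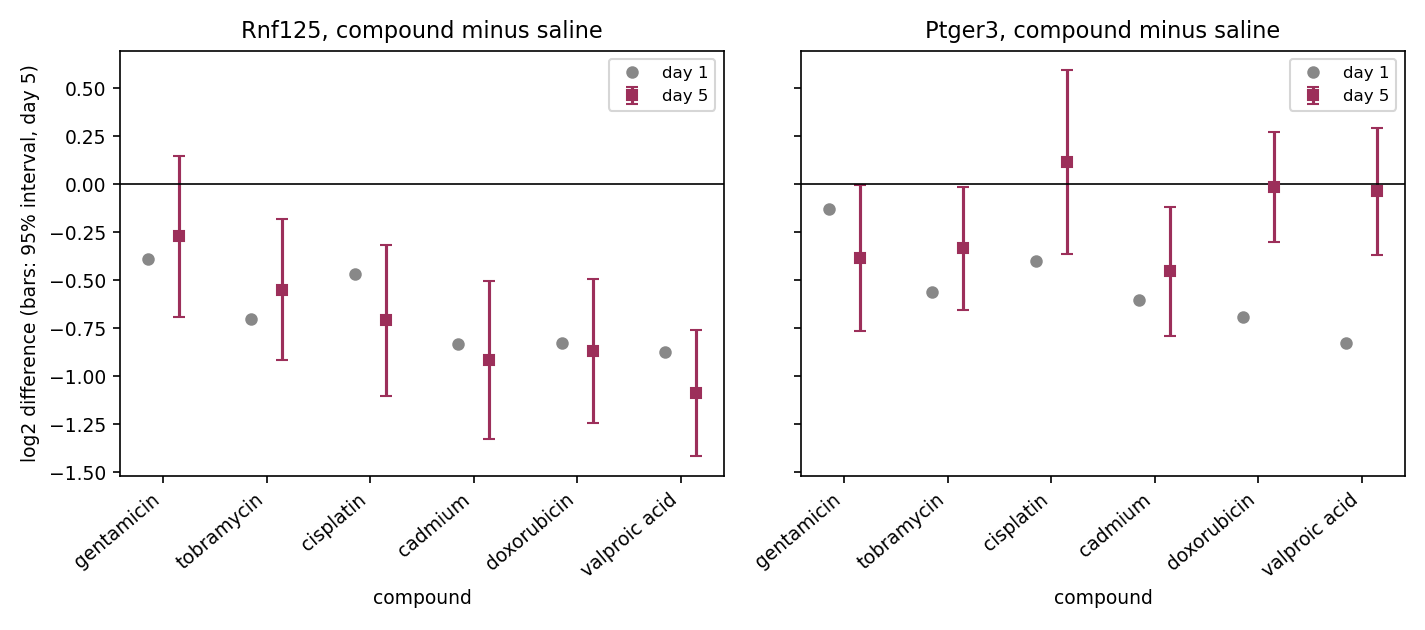
Difference from saline of the same day in log2(signal + 16) for Rnf125 (left) and Ptger3 (right), for each compound at day 1 (grey circles, a description) and day 5 (squares, with 95% intervals). Rnf125 was below 0 at both days, down to -1.09 with valproic acid at day 5, while Ptger3 with valproic acid was at -0.82 at day 1 and at -0.04 at day 5.

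Against naive rats, 1 of the 12 day-5 values passed. Rnf125 with valproic acid was 0.76 lower than in naive rats, given as -0.76 with an adjusted p of 0.0071 (limma). With doxorubicin it was at -0.56 (adjusted p = 0.056), with cadmium at -0.57 (0.284) and with cisplatin at -0.39 (0.315). Without adjustment, 4 of the 12 had a p under 0.05, all for Rnf125. The genes called made up 0.797% with valproic acid, 1.17% with doxorubicin, 0.131% with cadmium, 0.123% with cisplatin, 0.0526% with tobramycin and 0% with gentamicin. Ptger3 against naive rats ran from -0.22 with cadmium to 0.33 with cisplatin.

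Saline itself for 5 days gave no call against naive rats for either gene (0% of genes called). Rnf125 was at 0.30 (95% interval 0.01 to 0.59) and Ptger3 at 0.22 (-0.11 to 0.56), both with an adjusted p of 0.780, and 1 of the 2 had an unadjusted p under 0.05 in limma. The second Ptger3 probe set had the opposite sign, at -0.19 (-0.64 to 0.26). The related aminoglycosides gentamicin and tobramycin were compared at day 5 as 1 pair, at doses that the labels do not state. Gentamicin minus tobramycin was 0.26 for Rnf125 (-0.12 to 0.65) and -0.04 for Ptger3 (-0.43 to 0.34), with adjusted p-values of 0.859 and 0.978, 0 of 2 under 0.05 without adjustment and 0% of genes called. These intervals still hold differences of up to 0.65 in Rnf125, so the pair is not shown to act alike.

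Rnf125 was higher in male kidneys, and Ptger3 was not called between the sexes. Rnf125 signals averaged 131.3 ± 54.4 in 44 males and 72.9 ± 21.05 in 45 females (SD). The male mean was higher in 14 of the 15 groups, all but cadmium at day 5, and in 10 groups every male lay above every female. The share of all genes with the sexes apart in this way was not counted. With a term for each group, males were 0.67 higher on the log2 scale (SE 0.06, adjusted p = 2.6e-15 in limma). Sex differences were common on these arrays, with 64.3% of the genes called and 23.9% called higher in males. Rnf125 ranked 848 of 11415 by p.

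Ptger3 signals averaged 438 ± 133.5 in males and 437 ± 135 in females (SD), a difference of 0.01 (95% interval -0.13 to 0.16, adjusted p = 0.873 in limma). The sexes lay apart in 4 of 15 groups, with every male above every female in 2 and every female above every male in 2. Its second probe set was 0.19 higher in males (0.02 to 0.35, adjusted p = 0.043 in the fit of every probe set), so the probe sets differ in that call. Whether the day-5 differences were unlike in males and females was tested per compound, and 0 of 12 such terms passed (2 of 12 with an unadjusted p under 0.05). These were Rnf125 with cadmium, at -0.91 for the male minus the female difference (adjusted p = 1.0), and Ptger3 with valproic acid, at -0.88 (adjusted p = 0.591). Of all genes, 0.00876% passed with gentamicin and 0% with each of the other 5 compounds.

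Among rats of the same group and sex, Rnf125 was lower where clock output genes were higher. Each rat was given a clock score, the mean log2 value of Dbp, Tef, Nr1d1, Nr1d2, Per2 and Per3 minus that of Bmal1, Npas2 and Clock. With a term for each group and sex, Rnf125 changed by -0.30 on the log2 scale per unit of the score (SE 0.06, adjusted p = 0.0027 in limma). Only 0.316% of the 11406 genes outside the score passed, and 0.132% passed with a lower value at a higher score. The slope of Rnf125 lost its call with no scaling between arrays (-0.20, adjusted p = 0.486), in the rats of day 1 alone (-0.23, adjusted p = 0.203) and in those of day 5 alone (-0.37, adjusted p = 0.155), the last pair being fits with fewer rats. The slope of Ptger3 was -0.05 per unit (95% interval -0.21 to 0.12, adjusted p = 0.854). Its second probe set had a slope of -0.24 (-0.43 to -0.05, unadjusted p = 0.013, adjusted p = 0.245 in the limma fit of every probe set), so the probe sets differ here too and the slope of Ptger3 is not shown to differ from that of Rnf125.

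The single gene most opposed to Rnf125 was Dbp, a PAR bZIP transcription factor driven directly by the clock. Its Pearson r with Rnf125 within group and sex was -0.56 over 89 rats (rho = -0.52), the lowest of all 11415 genes. The permutation p was 2e-05 for r and 5e-05 for rho (two-sided, 100000 resamples within group and sex), and 0.0001 and 0.00025 after Benjamini-Hochberg over the 5 relations computed. Without the 2 rats farthest from the median of Dbp, r was -0.51. It was -0.66 in males and -0.44 in females, -0.40 in the 43 rats of day 1 and -0.68 in the 40 rats of day 5. In 12 of the 15 groups the relation was negative. Deposited signals that were not scaled between arrays gave r = 0.19, so the negative relation was seen only after scaling. In every other alternative setting r stayed negative. Before scaling, the trimmed means of the arrays spanned 3.84-fold. Without scaling, r of Rnf125 with Ptger3 also rose, from 0.01 to 0.50. The part of array brightness in these unscaled values was not tested.

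Bmal1, the activator that falls as Dbp rises, had r = 0.36 with Rnf125 (rho = 0.31), with adjusted permutation p-values of 0.038 and 0.053. Without the 2 rats farthest in Bmal1, r fell to 0.26. Ptger3 had r = -0.08 with Dbp (rho = -0.03, adjusted permutation p = 0.696 for r) and 0.18 with Bmal1 (rho = 0.15, adjusted permutation p = 0.312 for r). Between Rnf125 and Ptger3, r was 0.01 (rho = -0.12, adjusted permutation p = 0.926 for r and 0.480 for rho). That r was -0.34 in the rats of day 1 and 0.30 in those of day 5, and 0.24 in males and -0.23 in females.

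**Figure D3:**
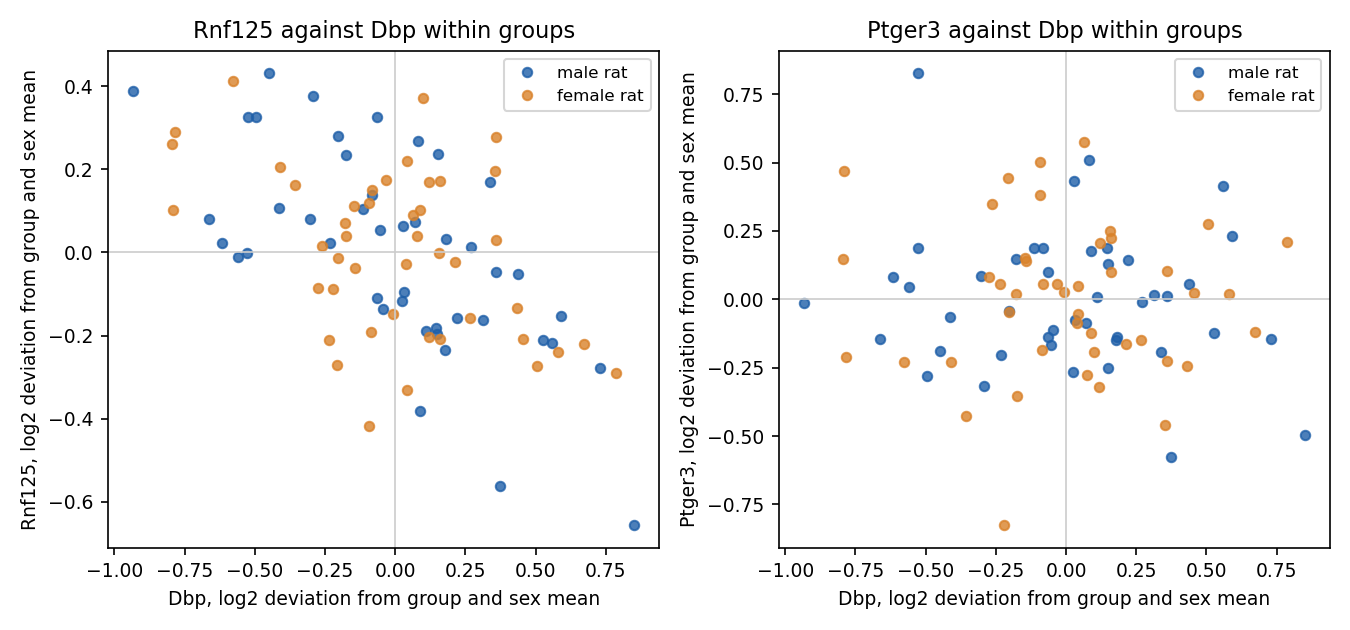
Each point is 1 of 89 rats, with its log2 deviation from the mean of its group and sex in Dbp (horizontal) and in Rnf125 (left) or Ptger3 (right), and the sexes in separate colours. Rnf125 declines as Dbp increases, with r = -0.56, and Ptger3 shows r = -0.08.

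The 18 clock genes measured fell to opposite sides of Rnf125. Per2 (r = -0.53), Nr1d2 (-0.49) and Tef (-0.49), all raised by BMAL1 complexes, ranked 3, 4 and 5 from the lowest r of the 11415 genes. Nfil3, a repressor that competes with DBP at D-boxes, had r = 0.49 and was the 8th highest. Npas2 had r = 0.41. Other clock genes were weaker: Per1 was at -0.20, Nr1d1, a gene of the score, at -0.17, Cry2 at -0.14, Hlf at -0.10 and Bhlhe40 at -0.05. With Ptger3 the 18 genes ran from -0.33 (Hlf) to 0.18 (Bhlhe40 and Bmal1). These correlations are descriptions: the genes share the arrays and their scaling.

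**Figure D4:**
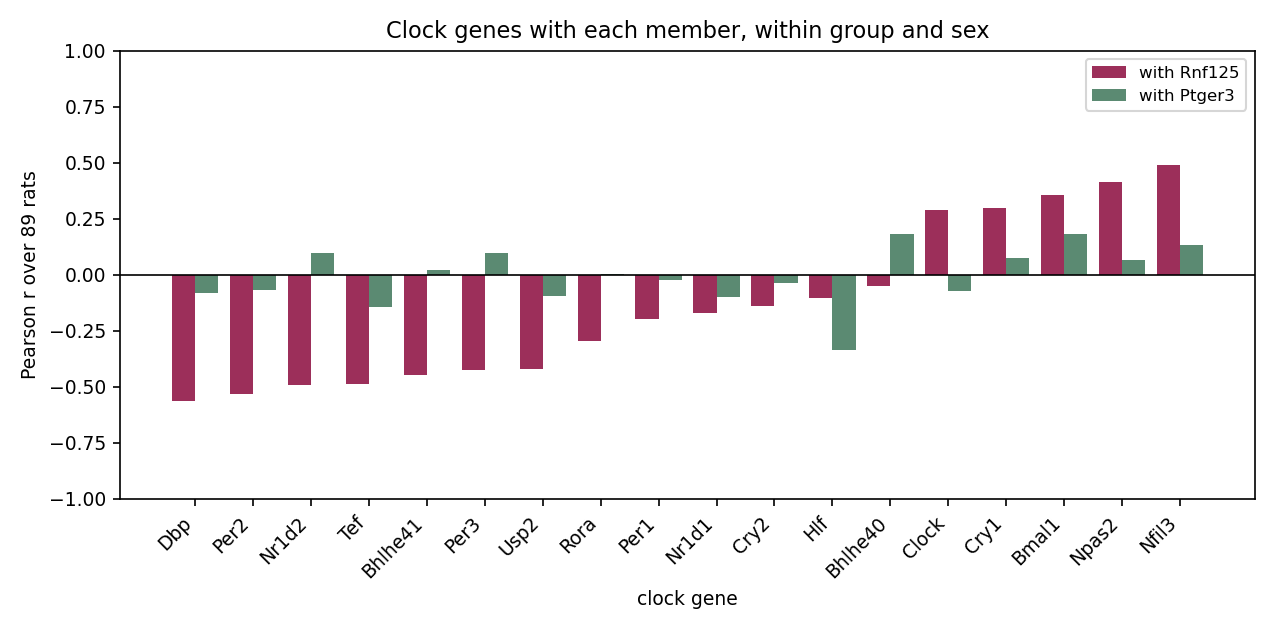
Pearson r of 18 clock genes with Rnf125 and with Ptger3, over 89 rats after centring on group and sex, with bars drawn from 0. The bars of Rnf125 run from -0.56 for Dbp to 0.49 for Nfil3, and those of Ptger3 stay between -0.33 and 0.18.

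Clock gene levels also varied between groups. Mean Dbp signals were 148.2 ± 44.6 in saline at day 1 (SD, n = 7), 240 ± 110.97 in naive rats (n = 6) and 280 ± 144 in saline at day 5 (n = 5). They were 623 ± 243 with valproic acid (n = 6), 700 ± 211 with cadmium (n = 6) and 748 ± 153 with doxorubicin (n = 5) at day 5. Over the 15 group means, Dbp and Rnf125 had r = -0.94, a description of groups of which several were used in the choice. Of the 18 clock genes tested, 0 passed against saline at day 5 in the fits of single compounds. Against naive rats, 4 rose and 2 fell with valproic acid, 7 rose and 2 fell with doxorubicin and 5 rose and 2 fell with cadmium (limma, adjusted p under 0.05). Dbp rose by 1.34 on the log2 scale with valproic acid (adjusted p = 0.0047), and Bmal1 and Npas2 were the genes that fell with each of these compounds.

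With the clock score as a covariate, a fit added after these relations were seen, the day-5 differences of Rnf125 from saline were nearer to 0. They were -0.05 with cadmium (95% interval -0.77 to 0.68), -0.06 with doxorubicin (-0.87 to 0.76) and -0.40 with valproic acid (-0.79 to -0.01). Cisplatin was at -0.45 (-0.89 to -0.01), gentamicin at -0.21 (-0.46 to 0.04) and tobramycin at -0.16 (-0.45 to 0.12). The scores of the saline rats ran from 0.13 to 1.19, those of the cadmium rats from 1.42 to 2.64 and those of the doxorubicin rats from 1.81 to 2.78. With cadmium and doxorubicin the score and the treatment cannot be told apart. The valproic acid scores ran from 1.14 to 3.08 and met those of saline only between 1.14 and 1.19, so they are hardly separable there either. The lowest adjusted p of Rnf125 in these limma fits was 0.790, with gentamicin. Between the sexes, Dbp was 0.48 higher in males, and with the score as a covariate the sex difference of Rnf125 was 0.83.

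Other genes near the roles of the pair gave few calls. Of 17 tested genes of RIG-I signalling and relatives of Rnf125, 0 passed with any compound against saline at day 5, with medians from 0.09 with doxorubicin to 0.20 with cisplatin beside medians of all genes near 0. Mavs, the adaptor that RNF125 ubiquitinates, had group means from 305 to 362, and Trim25, a ligase that activates RIG-I, from 351 to 510. Its relatives Rnf114, Rnf138 and Rnf166 had group means from 245 to 297, 157.95 to 195 and 123.7 to 163. Between the sexes, 2 of the 17 were higher and 8 lower in males, near the shares of all genes called, 23.9% higher and 40.4% lower. The lowest adjusted p-values were those of Traf3 (0.39) and Ube2d2 (0.17), higher in males, followed by Sting1 (-0.34) and Rnf114 (-0.24), lower in males (all under 0.05 in limma).

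Of 16 tested genes of prostaglandin synthesis, transport and reception, 0 passed against saline at day 5 with any compound, with medians from -0.04 to 0.08. The cyclooxygenases Ptgs1 and Ptgs2 had group means from 194 to 391 and from 47.3 to 86.8. The other receptors were dim: Ptger1 had group means from 22.8 to 42.1, Ptger4 from 22.7 to 36.6, and Ptger2 did not pass the filter. Signals of different probe sets are not compared as levels. In the sex comparison 3 of the 16 were higher and 6 lower in males, again near the shares of all genes, 23.9% and 40.4%. Hpgd, the enzyme that inactivates prostaglandin E2, was 1.63 higher in males. Ptgs1 was 0.82 lower, given as -0.82, while Ptger3 differed by 0.01.

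Within groups, Ptger3 (brighter probe set) varied with genes of the thick ascending limb and collecting duct and opposite to proximal tubule genes. These correlations are a description without a test, and the second probe set was not set against the lists. The deviations of Ptger3 had r = -0.53 with the mean of 8 proximal tubule genes, and all 8 were negative. They had r = 0.32 with the mean of 8 genes of the thick ascending limb and distal tubule (6 of 8 positive) and 0.27 with that of 9 collecting duct genes (9 of 9 positive). Single genes of the thick ascending limb and distal tubule ran from -0.02 (Umod) to 0.33 (Kcnj1) with Ptger3. Rnf125 had r = 0.19, -0.25 and -0.35 with the means of the same lists. Adipocyte, lymphocyte, macrophage and endothelial genes had r between -0.12 and 0.03 with Ptger3. With Rnf125 they ran from -0.15 for lymphocyte genes to 0.28 for adipocyte genes, of which 6 of 6 were positive. The summed signal of the thick ascending limb and distal tubule genes had its highest group median, 22429, in saline at day 1 and its lowest, 19087, in naive rats. The part of tissue composition in the levels of Ptger3 was not tested.

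The genes with patterns most like the pair were found over the 89 rats after centring on group and sex. For Rnf125 they were Ddit4l (r = 0.55), Pbdc1 (0.55), Cnih4 (0.54), Slc17a3 (0.53), a tubular anion transporter, and Cwc27 (0.51), with Slc35a5 (-0.53) among the most opposed after Dbp. For Ptger3 they were Cdcp1 (0.70), Tspan12 (0.66), Btg1 (0.66), Plod2 (0.65), a lysyl hydroxylase of collagen, and Slc38a1 (0.65), an amino acid transporter. The most opposed to Ptger3 were C13h1orf115 (-0.68), Slc37a4 (-0.66), the glucose-6-phosphate transporter, and Msrb1 (-0.65). Over the 15 group means the most alike were Sh3tc1 (0.93), Hnrnpc (0.92) and Leo1 (0.92) for Rnf125, and Tomm22 (0.82), Kat2a (0.82) and Ncoa1 (0.81) for Ptger3. No gene was on both lists.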

How the data were processed

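The authors deposited 1-colour Affymetrix rat array signals as a linear intensity per probe set, made with MAS5 per the submitters' processing notes. The MAS5 version, scaling target and detection call settings: not given in the sources used here. Of 31099 probe sets, 57 controls, 436 with several symbols and 9780 with no symbol were left out. Symbols came from the platform annotation and matched RefSeq. Arrays were scaled to a common 2% trimmed mean and written as log2(signal + 16). A gene was its probe set of highest mean. Genes above the 40th percentile of signal (33.2) on at least 5 arrays were tested.

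limma 3.58.1 in R 4.3.3 (lmFit, eBayes with trend and robust) fitted each pair of groups with sex as a covariate, and p-values were adjusted over all genes (Benjamini-Hochberg, limit 0.05). Intervals are 95%. The number of arrays limits the precision. The fits were tested on simulated data. Correlations used Python with 100000 permutations within group and sex. The genes, lists and tests were chosen with earlier results of these data known. Named genes were the pair, the 5 most and 3 least alike over rats and the 3 most alike over group means. List genes were named if set by name, called at day 5 or lowest in adjusted p between the sexes. Alternatives covered scaling, pseudocounts of 1 and 64, filter, probe sets, arrays, controls and the ratio of 3' to 5' Gapdh signal.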

Additional observations from a re-analysis of the deposited data

Results flagged for a closer look

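One female given cadmium for 5 days (5F140) had a signal of 79.1 with the second Ptger3 probe set, while the other 5 rats of the group lay between 167 and 185. The gap to the nearest rat was 0.875 of the group's whole range. With the brighter Ptger3 probe set, the same rat was at 336, within the group's range. Of 45 sets of values checked in this way (3 probe sets in 15 groups), 1 stood out, and chance gives about 1 in 20.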

How the results depend on the processing

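No paired analysis was possible because every rat gave 1 array and its code is shared with no other group. Over all settings but leaving out single rats, Rnf125 stayed below saline at day 5 with tobramycin, cisplatin, cadmium, doxorubicin and valproic acid, and higher in males (0.47 to 0.98, called in each setting). The count of 12 day-5 values called was 0 as reported, 2 with no scaling, 3 with all arrays fitted together, 1 against naive rats, 1 with the Gapdh ratio as a covariate, and 0 to 2 leaving out each rat in turn (2 without saline female 1F105: valproic acid, adjusted p = 0.0081, and doxorubicin, 0.044, in limma). In the fit on all arrays it was 3, 0 with no scaling, 1 without the 5 arrays whose treatment text was missing or unlike the title, and 1 to 4 leaving out each rat. It was 2 without saline female 1F106 or saline male 1M5. The call of Rnf125 on the clock score was 0 of 2 with no scaling, in rats of day 1 only and in rats of day 5 only, fits with fewer rats. For Rnf125 with Dbp, r was 0.19 with no scaling, -0.44 in females, -0.40 at day 1 and -0.68 at day 5. For Rnf125 with Ptger3, r was 0.50 with no scaling, -0.11 without the 2 farthest rats, 0.24 in males, -0.23 in females, -0.34 at day 1 and 0.30 at day 5. The cause of these changes was not tested.

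Among differences and slopes, signs turned only for those that were not called. The correlation of Rnf125 with Dbp, which had passed, also turned sign, to 0.19 with no scaling. Ptger3 with valproic acid turned to 0.0589 with no scaling (0.0587 in the fit on all arrays), 0.00208 without the 5 arrays in both fits, 0.22 against naive rats and 0.42 with the clock score. Rnf125 with gentamicin turned to 0.0347 and Ptger3 with doxorubicin to 0.15 against naive rats. Ptger3 between the sexes turned to -0.00353 without the 5 arrays and -0.00924 with the Gapdh ratio. Its slope on the clock score turned to 0.0568 with no scaling and 0.10 in rats of day 1. Ptger3 in gentamicin minus tobramycin turned to 0.23 with no scaling. Leaving out single rats, Ptger3 ran from -0.0792 to 0.27 with cisplatin, -0.12 to 0.11 with doxorubicin, -0.20 to 0.0599 with valproic acid and -0.15 to 0.0791 between the aminoglycosides. In the fit on all arrays it ran from -0.11 to 0.18 with cisplatin and -0.15 to 0.0599 with valproic acid. Pseudocounts of 1 and 64, quantile scaling, no filter and every probe set kept each count within 1.5 times.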
